A study of Selaginella moellendorffii with 8 samples.

Results

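The 200 gene models described here were chosen by their levels in the 2 rhizophore and 2 root libraries of the series, and what those levels chose is description here. They were abundant in the library labelled rhizophore replicate 2 and in both root libraries, and scarce in rhizophore replicate 1. A model qualified at 10 CPM or more in rhizophore replicate 2 and at 8 or more times the level of rhizophore replicate 1 plus 0.5 CPM. It also had to reach 5 CPM in both root libraries and 2 times the rhizophore replicate 1 level in each of them. CPM is a model's read count scaled to a common library total and adjusted between libraries by TMM, edgeR's trimmed mean of M-values. Of 25004 models, 467 met the rhizophore conditions and 238 met all of them. The first 200 were kept as members, ranked by the ratio of the 2 rhizophore libraries after adding 1 CPM to each.

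RNA came from the rhizophore, root, leaf and shoot of Selaginella moellendorffii, a lycophyte, with 2 libraries per organ, each from 40 pooled pieces of untreated tissue of plants raised from stem cuttings. Rhizophores were outgrowths of the ventral angle meristem, 4 to 7 days old and 2.5 to 3.5 cm long, without root cap, hairs, green colour or leaves. Roots grew from the same meristem and measured 5 to 10 cm at an age of 10 to 20 days, and they bore hairs and a cap. Leaves were whole microphylls of 10 to 14 days, and shoots were green tips 10 to 20 days after branching that had already formed microphylls. Organ and age cannot be told apart between rhizophore and root. Both libraries of an organ are labelled as biological repeats, without saying that separate plants were used. The p-values therefore rest on the spread between these samples, which may be technical.

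A rhizophore is a leafless axis that arises at a branch point of the Selaginella stem, grows downward and forms roots at its tip. It combines features of stems and roots, and its identity as an organ has long been discussed. In a bulk sample, fewer cells of a type and less RNA per cell cannot be told apart. None of the model names matched the reference gene table (0 of 25004), so no member can be given a function, a position or a sequence. The 13 lists of gene functions drawn up for this description matched no model for the same reason, and the organ labels could not be checked against marker genes.

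Total counts were 10063538 and 11886486 for the rhizophore libraries, 25937179 and 27891111 for root, 2826533 and 16058139 for leaf and 15161907 and 15305641 for shoot. The rhizophore libraries stood apart from each other more than those of any other organ, with a chi-square per degree of freedom of 283 over 15740 models, against 123 in root, 4.54 in leaf and 14.4 in shoot. This measure grows with depth, so its size cannot be compared directly between organs. The rank correlation of the 2 libraries over all models was 0.877 in rhizophore, 0.933 in root, 0.944 in leaf and 0.978 in shoot. No count between 1 and 4 was listed anywhere, so a listed 0 can hide up to 4 reads. The smallest listed count, 5, corresponds to 0.402 and 0.324 CPM in the rhizophore libraries, 0.127 and 0.103 CPM in root, 2.15 and 0.438 CPM in leaf and 0.519 and 0.515 CPM in shoot.

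Together, the members took 2.34% of all counts in rhizophore replicate 2 and 0.0861% in rhizophore replicate 1. They took 1.66% and 2.30% in the root libraries, 0.134% and 0.136% in leaf and 0.118% and 0.115% in shoot. Their 95% Wilson intervals extended by 0.00859 percentage points or less each way, and cover counting error only. The rule fixed the contrast between the first 4 of these libraries, but it used no value from leaf or shoot. In the leaf and shoot libraries the members' shares of raw counts were close to one another and above that of rhizophore replicate 1, which the rule kept low. After TMM adjustment the gap was wider. The members then summed to 1627 and 1919 CPM in leaf, 1852 and 1818 CPM in shoot and 696 CPM in rhizophore replicate 1.

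**Figure D1:**
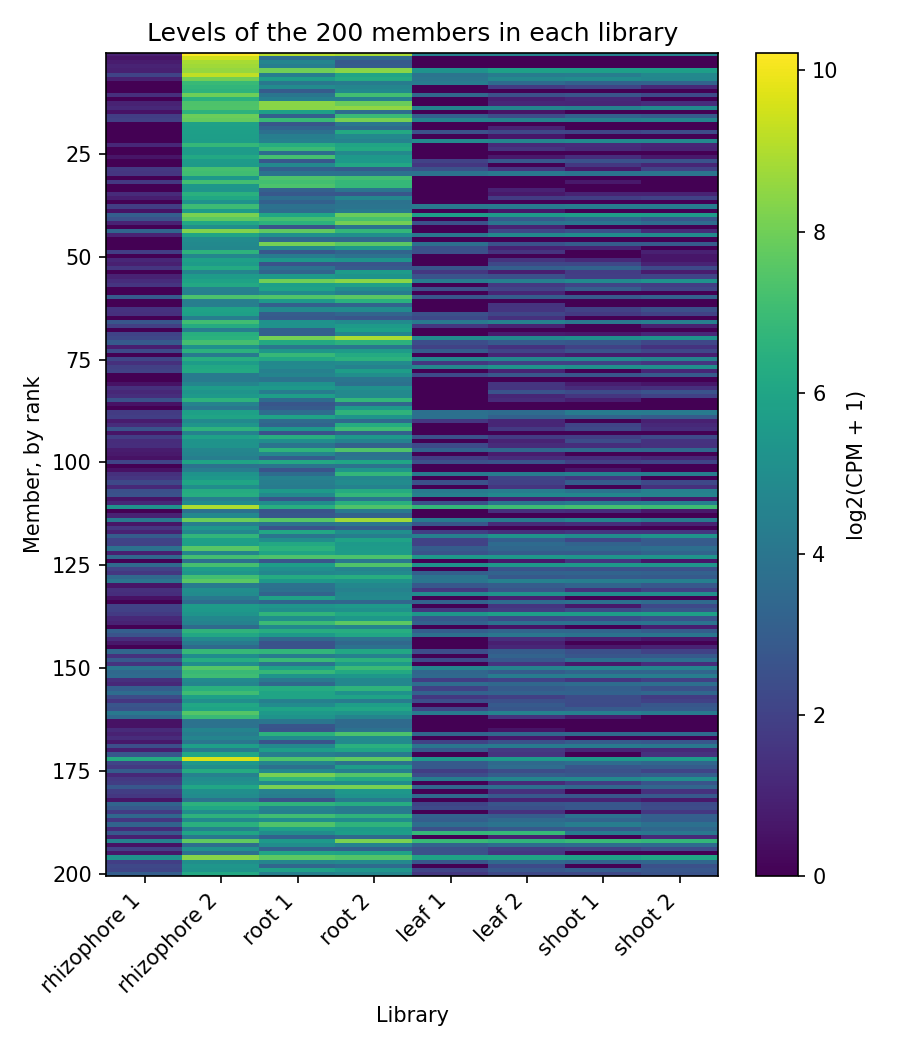
Level of each of the 200 members (rows, by rank) in each of the 8 libraries (columns), as log2(CPM + 1), where brighter is higher. Rhizophore replicate 2 and both root columns are bright through the whole list, and rhizophore replicate 1, leaf and shoot are mostly dark. The 2 rhizophore and 2 root columns were used to choose the rows.

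The median member stood at 1.53 CPM in rhizophore replicate 1 and 48.6 CPM in rhizophore replicate 2. In root it stood at 27.2 and 35.5 CPM, in leaf at 3.01 and 3.46 CPM and in shoot at 3.58 and 3.45 CPM. Members ranged from 10.4 to 1189 CPM in rhizophore replicate 2 and from 5.02 to 546 and 5.24 to 484 CPM in the root libraries, and no member was listed at 0 in these. Each had at least 160 counts in rhizophore replicate 2 and at least 198 and 254 counts in the root libraries. In rhizophore replicate 1, 39 members were listed at 0, 78 were under 1 CPM and 38 reached 5 CPM or more, with 76.6 CPM the highest. Among all 25004 models the medians of the 8 libraries lay much closer together, from 4.27 CPM in rhizophore replicate 2 to 7.01 CPM in root replicate 2.

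**Figure D2:**
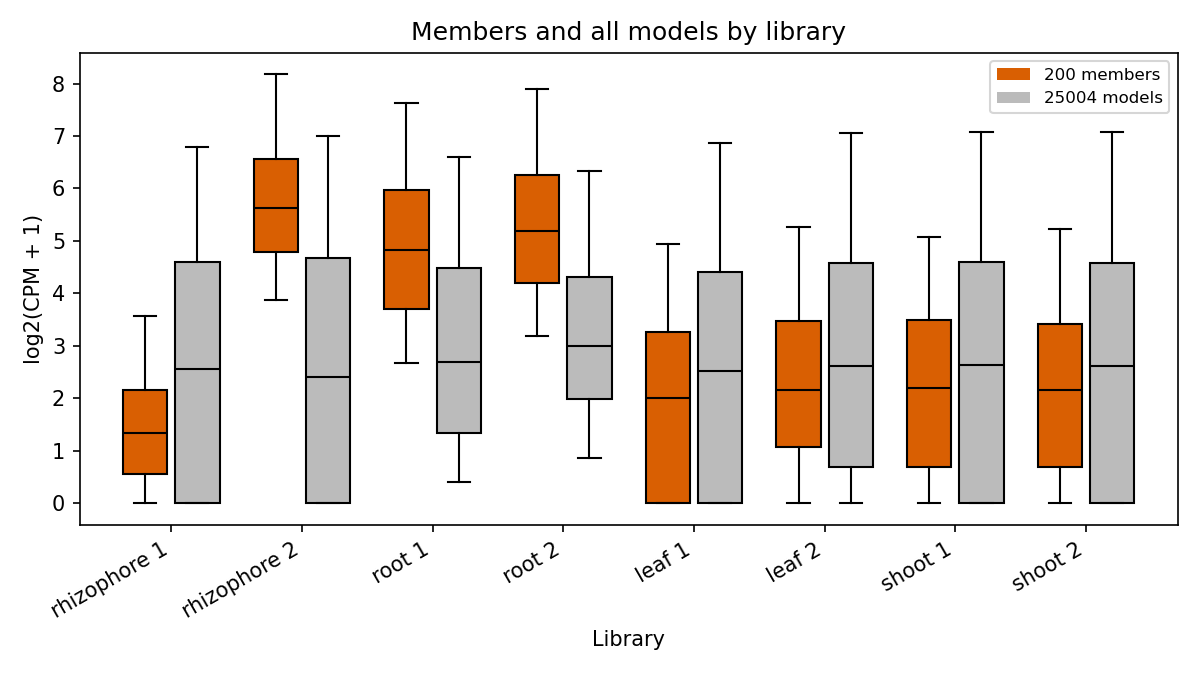
Distribution of log2(CPM + 1) in each library for the 200 members and for all 25004 models. Boxes span the quartiles with the median as a line, and whiskers reach the 5th and 95th percentiles. The members' median is above that of all models in rhizophore replicate 2 and both root libraries, and below it in the other 5.

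The leading member by rank, 105221.v1, had 0.883 CPM in rhizophore replicate 1 and 1189 CPM in rhizophore replicate 2. It was at 546 and 466 CPM in root, 21.5 and 22.7 CPM in leaf and 21.1 and 22.8 CPM in shoot. The leaf and shoot libraries thus sat within a narrow band, above rhizophore replicate 1 and below both root libraries. The second member, 412273.v1, had only 0.482 CPM in rhizophore replicate 1, while rhizophore replicate 2 held 710 CPM. It had 12.1 and 10.6 CPM in root. It was listed at 0 in all 4 leaf and shoot libraries, so it was detected in root and rhizophore and far higher in rhizophore replicate 2 than anywhere else.

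The next members differed in the same manner, some with rhizophore replicate 2 alone at the top and some with it beside root. The third was at 472 CPM in rhizophore replicate 2 and 23.9 and 6.46 CPM in root. The fourth was at 434 CPM there and 19.1 and 6.95 CPM in root, and both were listed at 0 in all leaf and shoot libraries. The fifth was at 383 CPM in rhizophore replicate 2, beside 257 and 341 CPM in root, 36.2 and 55.3 CPM in leaf and 53.3 and 52.6 CPM in shoot.

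The ratios of the 2 rhizophore libraries, after adding 1 CPM to each, ran from 8.83 to 632 with a median of 14.6. Of the members, 9 were above 100, 58 between 20 and 100 and 133 below 20. The last member by rank was at 7.23 and 71.6 CPM in rhizophore replicates 1 and 2 and the first model past the limit of 200 at 1.12 and 17.7 CPM, with ratios of 8.83 and 8.79. The nearest models under the fold condition were at 5.38 and 46.6, 19.7 and 159, and 1.61 and 16.6 CPM in the rhizophore libraries, with folds of 7.92, 7.88 and 7.87 over rhizophore replicate 1 plus 0.5 CPM. The members closest to that condition had folds of 9.02, 9.25 and 9.27.

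The rule asked for a higher minimum and fold of rhizophore replicate 2 than of root and ranked by its excess over rhizophore replicate 1, so it favoured members with rhizophore replicate 2 above root, and its position relative to root is a description. Rhizophore replicate 2 exceeded both root libraries in 115 members, lay between them in 44 and was below both in 41. The ratio of rhizophore replicate 2 to the root mean had a median of 1.36 and quartiles of 0.909 and 2.70. It was within 2-fold of the root mean in 107 members, more than 2-fold above it in 67 and more than 2-fold below it in 26. Members at 10 times the root mean or more numbered 7, led by 412273.v1 at 62.7 times. At the other end stood 409522.v1, with 1.29 and 21.4 CPM in the rhizophore libraries against 274 and 179 CPM in root.

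**Figure D3:**
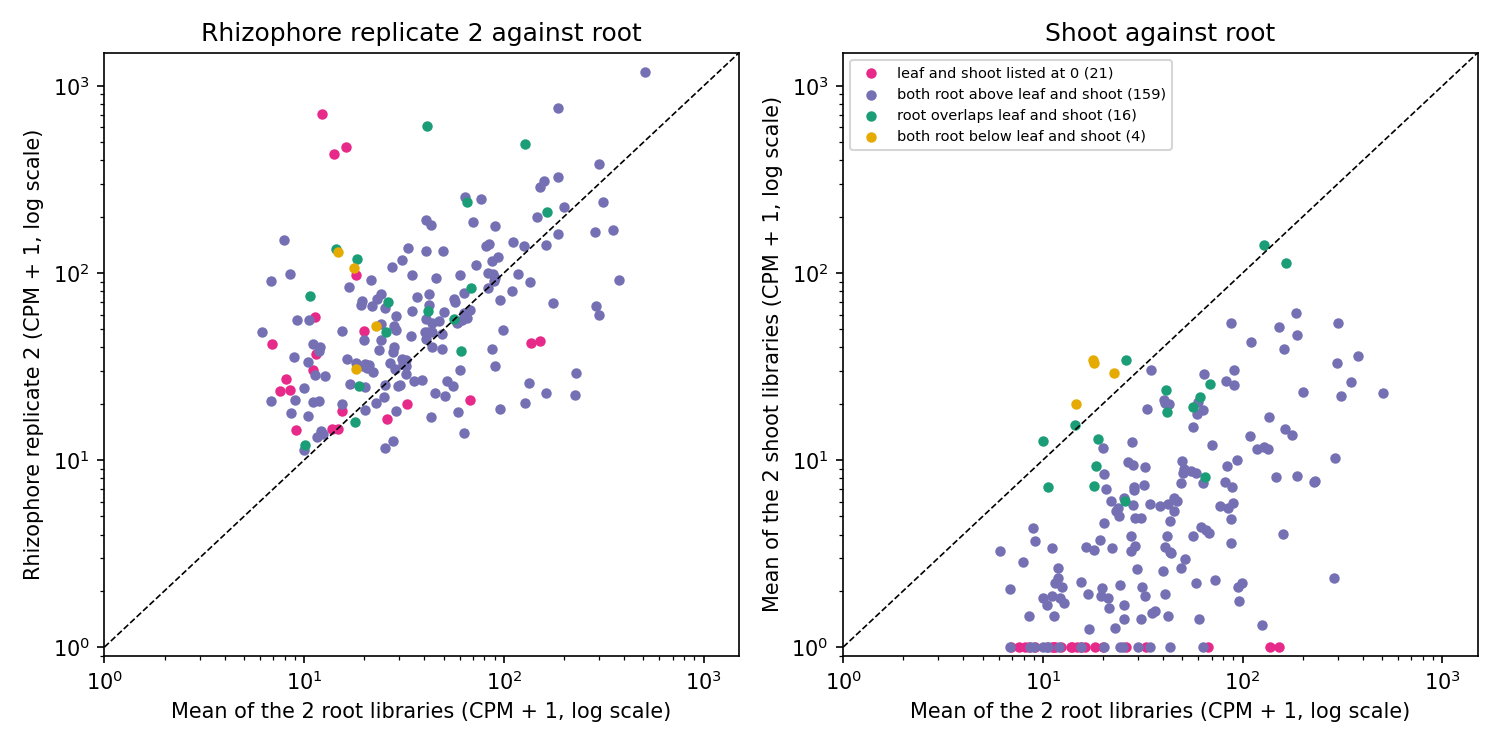
Level in rhizophore replicate 2 (left) and mean of the 2 shoot libraries (right) against the mean of the 2 root libraries, 1 point per member, in CPM + 1 on log axes with the line of equality. Colours give the position of the root libraries relative to the 4 leaf and shoot libraries. Points scatter on both sides of the line for rhizophore replicate 2, and all but 8 lie below it for shoot.

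The root libraries agreed within 2-fold for 149 members. Root replicate 2 was more than 2-fold above root replicate 1 in 44 members (22.0%) and the reverse held for 7 (3.50%). Among the 3352 models that met the root conditions of the rule these shares were 7.01% and 4.36%. The widest gap belonged to the member of rank 16, at 7.48 and 121 CPM in root, and at 2.65 and 239 CPM in rhizophore. Rhizophore replicate 2 was nearer to root replicate 2 than to root replicate 1, as a ratio, in 133 of the 200 members (66.5%), beside 59.7% of the 3042 models above 0 there that met the root conditions. Root replicate 2 was the higher root library in 120 members, and a rhizophore replicate 2 above both is by construction nearer to the higher one.

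Leaf and shoot values, which the rule did not use, divided the members first by whether any leaf or shoot library listed a count. A listed 0 is a limit of detection and not absence from the tissue. In 21 members all 4 leaf and shoot libraries were listed at 0. That is 10.5% of the members, against 2.45% of models that met the root conditions and 18.5% of all models. Their median was 29.1 CPM in rhizophore replicate 2 and 13.0 CPM for the root mean. Against the smallest listed count in the shoot libraries, each was at least 11.5-fold higher in root.

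The members of ranks 31 and 33 had the highest root levels among these 21. The member of rank 31 was at 0 and 42.4 CPM in the rhizophore libraries and 164 and 137 CPM in root. The member of rank 33 was at 0 and 41.1 CPM in the rhizophore libraries and 159 and 112 CPM in root. Of the 21, 14 were higher in rhizophore replicate 2 than in both root libraries, and 12 were listed at 0 in rhizophore replicate 1.

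A further 159 members were detected in leaf or shoot, but at a lower level than in either root library. Their medians were 1.69 CPM in rhizophore replicate 1, 50.9 CPM in rhizophore replicate 2, 39.7 CPM in root, 3.42 CPM in leaf and 3.62 CPM in shoot. With the 21 above, both root libraries lay over all 4 leaf and shoot libraries in 180 members (90.0%). The same was true of 62.2% of models that met the root conditions and of 47.4% of all models. Root and leafy libraries overlapped in 16 members, and in 4 members both root libraries lay below all leafy ones.

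In these last 20 members rhizophore replicate 1 was below every leaf and shoot library, which the 2-fold root condition fixed for the 4 and favoured for the 16. The member of rank 22 was at 0 and 51.2 CPM in the rhizophore libraries, 21.3 and 22.3 CPM in root, 26.7 and 24.5 CPM in leaf and 28.9 and 27.4 CPM in shoot. The member of rank 111 was at 34.7 and 490.3 CPM in rhizophore, 86.1 and 168 CPM in root, 108 and 132 CPM in leaf and 148 and 132 CPM in shoot. Over all members, rhizophore replicate 1 was below every leafy library in 79 (39.5%), beside 65.7% of models that met the root conditions and 25.5% of all models. It was above every one in 33 (16.5%), beside 8.83% and 33.7%. Rhizophore replicate 2 was above every leafy library in 195 members. The rule's minimum and fold for that library favoured this, and the share among all models was not computed.

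The grouping by leafy libraries, and the comparison with models that met the root conditions, were added after values were seen.

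Root was compared with shoot in a fit on the 6 root, leaf and shoot libraries, because the rule selects members for a wide spread between the rhizophore libraries. Of the 200 members, 164 were higher in root than in shoot at an adjusted p under 0.05 (82.0%; edgeR's quasi-likelihood test with Benjamini-Hochberg adjustment over 23548 models), and 1 was lower. Among all models tested 41% were higher in root and 16% lower, and among the 3352 models that met the root conditions 57.2% were higher and 10.9% lower. All 200 members entered the test, which their root minimum ensured, and that minimum also favours calls toward root. The median log2 fold change, root over shoot, was 3.81 for the members, 0.91 for all models and 1.14 for models that met the root conditions. With shoot values no lower than 5 counts per library the median member was 11.3-fold higher in root. By that measure 109 members were at least 10-fold higher, 74 between 2-fold and 10-fold and 17 less than 2-fold. These folds were not computed for other models, and the root minimum favours high ones.

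Among the members called, the first 2 by the rank of the rule were the following, which is not an order by size or by p. 105221.v1 averaged 506 ± 56.9 CPM in root and 21.9 ± 1.20 CPM in shoot (SD, n = 2 each), which is 4.80 higher on the log2 scale (SE 0.25; adjusted p = 1.5e-32, edgeR). 412273.v1 averaged 11.3 ± 1.05 CPM in root and had no listed count in shoot, which makes it at least 21.9-fold higher in root (edgeR adjusted p = 2.5e-09). Both calls ended with all 8 libraries in the fit (edgeR adjusted p of 0.221 and 0.293). The exception, 75468.v1 of rank 118, was at 14.5 and 19.0 CPM in root and 30.2 and 36.7 CPM in shoot, with a log2 fold of -0.71 in root (SE 0.28; adjusted p = 0.024, edgeR). Its call ended without root replicate 1 or without either shoot library (edgeR adjusted p of 0.088, 0.09 and 0.261). In a fit without 1 library, that library's organ has a lone sample, which is assumed to vary like the samples of the other organs.

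Against leaf, 152 members were higher in root (76.0%), beside 35.4% of all models and 55.5% of those that met the root conditions. A single member was lower, beside 15.3% of all models and 9.67% of those that met the root conditions. The median log2 fold change was 3.91 for the members, 0.857 for all models and 1.18 for models that met the root conditions. With leaf values at 5 counts or more the median member was 8.51-fold higher, a fold not computed for other models. Because 5 counts are 2.15 CPM in leaf replicate 1 but 0.519 and 0.515 CPM in shoot, this fold and that for shoot have unlike floors. Both comparisons use the same root libraries. Members called higher in root than in shoot and than in leaf numbered 151 (75.5%), and 51.0% of models that met the root conditions and 31.6% of all models were called so. DESeq2's Wald test called 166 members for root against shoot and 162 for root against leaf, beside 49.5% and 41.7% of all models, and a term for the replicate number gave 163 and 160, beside 41% and 35.2%. With all 8 libraries in the fit, 7 members were called for root against shoot and 1 for root against leaf, beside 13.6% and 9.76% of all models. The wide spread between the members' rhizophore libraries, which the rule requires, enters that fit.

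**Figure D4:**
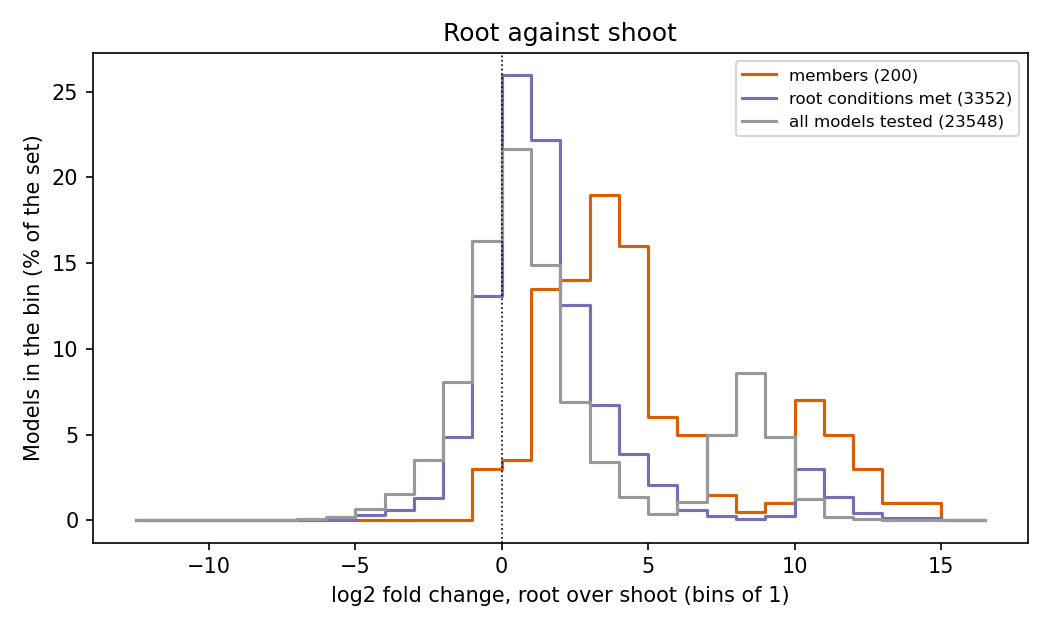
Distribution of the log2 fold change of root over shoot in bins of 1, as a percent of each set, for the 200 members, the 3352 models that met the root conditions and the 23548 models tested. Most members lie between 1 and 6. The 36 members listed at 0 in both shoot libraries lie at 9.95 or more, where a fitted fold change depends on a prior count and is no measure of size.

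The contrast of leaf with shoot sets against each other only libraries the rule did not use, but the root libraries share in the estimate of the spread. The root minimum also ensured that members near or at 0 in leaf and shoot entered the test. Of the 200 members 5 were called by edgeR, 4 of them higher in leaf and 1 lower. Among all 23548 models 0.412% were called, with 0.106% higher in leaf and 0.306% lower, and among models that met the root conditions 1.19%, with 0.507% higher and 0.686% lower. At an unadjusted p under 0.05, 29 members (14.5%) and 6.50% of all models passed. DESeq2's Wald test called 4 members, beside 0.629% of all models, and the replicate term left 2, beside 0.382%. The first 2 by rank of those higher in leaf, and the 1 lower, follow the rule for named models, and the other 2 are named because the list is short, after their values were seen.

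271925.v1, of rank 190, was the member whose leaf level was furthest from its shoot level in CPM among the 5. It was at 111 and 115 CPM in leaf and 18.5 and 15.6 CPM in shoot, so the groups were far apart. On the log2 scale leaf was 2.81 higher (SE 0.26; adjusted p = 2.1e-14, edgeR). It was also the only member called lower in root than in leaf in the same fit, with 31.6 and 50.2 CPM in root and a log2 fold of -1.26 (SE 0.25; adjusted p = 1.3e-05, edgeR). In the rhizophore libraries it was at 5.78 and 61.7 CPM.

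231581.v1 was at 4.74 and 2.10 CPM in leaf with no listed count in shoot, which makes it at least 6.62-fold higher in leaf (edgeR adjusted p = 9.5e-09). It rested on 11 and 24 counts in leaf. 403220.v1 was at 3.88 and 1.75 CPM in leaf and 0 in shoot (edgeR adjusted p = 0.0404), from 9 and 20 counts. 115322.v1 had 0 and 1.14 CPM in leaf and 0 in shoot (edgeR adjusted p = 0.0101), so that its call rested on 13 counts in 1 library. All 3 of these models met the root minimum, which brought them into the test whatever their leaf and shoot counts. 402349.v1, the member lower in leaf, was at 3.88 and 5.96 CPM in leaf and 12.6 and 12.3 CPM in shoot, with a log2 fold of -1.19 in leaf (SE 0.30; adjusted p = 0.0349, edgeR).

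Of these 5 calls, those of 271925.v1 and 231581.v1 stayed under the threshold without any single library, with the spread of a lone sample taken from the other organs. That of 403220.v1 ended without either root library, leaf replicate 1 or either shoot library, at edgeR adjusted p of 0.0963 to 0.562. That of 115322.v1 ended without root replicate 1, leaf replicate 2 or either shoot library (0.0904 to 1), and that of 402349.v1 without any one of the leaf and shoot libraries (0.176 to 0.599). All 5 ended with all 8 libraries in the fit, where edgeR called 0 members, beside 0.0127% of all models, and 2 passed at an unadjusted p under 0.05.

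Between rhizophore and root the rule had used every library, so the following counts describe the choice and nothing is read from them. For fits with a library left out or moved, another test or a replicate term, shares of all models count calls in either direction. With both rhizophore libraries, edgeR called 1 member, 409522.v1, lower in rhizophore and none higher, beside 24.8% and 11.8% of all 23662 models. Without the library labelled rhizophore replicate 2, 187 members were lower in rhizophore than in root and none higher, beside 36% of all models called in either direction. Without rhizophore replicate 1, 67 members were higher in rhizophore and 28 lower, beside 38.3%. Against shoot, 7 members were higher in rhizophore and none lower, beside 10% and 11.8% of all models. The calls against shoot were 195 without rhizophore replicate 1, all higher, and 100 without rhizophore replicate 2, of which 26 were higher and 74 lower, beside 42% and 32.2%. DESeq2's Wald test gave 10 and 96 members against root and shoot, beside 30% and 33.1% of all models, and the replicate term 0 and 10, beside 15.8% and 18.3%. Placing rhizophore replicate 2 among the root libraries gave 66 and 2 calls, all lower in rhizophore, beside 1.55% and 0.0486%.

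The averages in the authors' deposited table are set beside the count columns here, and the contrast of Root with Rhizophore in them restates the rule where the averages draw on the columns the rule used. In the authors' deposited table the Root average exceeded the Rhizophore average for all 200 members, and by 6.31-fold or more where the Rhizophore average was above 0. The medians in the authors' deposited table were 1.70 for Rhizophore, 48.1 for Root, 3.60 for Leaf and 3.66 for Shoot. For 412273.v1 the authors' deposited table gave 0.588 for Rhizophore and 380 for Root, whereas the 2 root columns of counts were at 12.1 and 10.6 CPM.

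Over the members, the Root average of the authors' deposited table exceeded both root columns in 110 cases. It was within 10% of a weighted mean of the count columns for all 200, with 50% from rhizophore replicate 2 and 25% from each root library (ratios of 0.978 to 1.10). These weights were chosen with earlier results of these data known. Neither count was taken over all models, so neither can be called particular to the members. The Rhizophore average of the authors' deposited table followed rhizophore replicate 1, with a median ratio of 1.06 and a range of 0.67 to 1.31 over the 122 members at 1 CPM or more there. Of the 39 members listed at 0 counts in rhizophore replicate 1, the authors' deposited table gave 17 a Rhizophore average above 0, from 0.153 to 0.425, and 22 an average of 0.

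**Figure D5:**
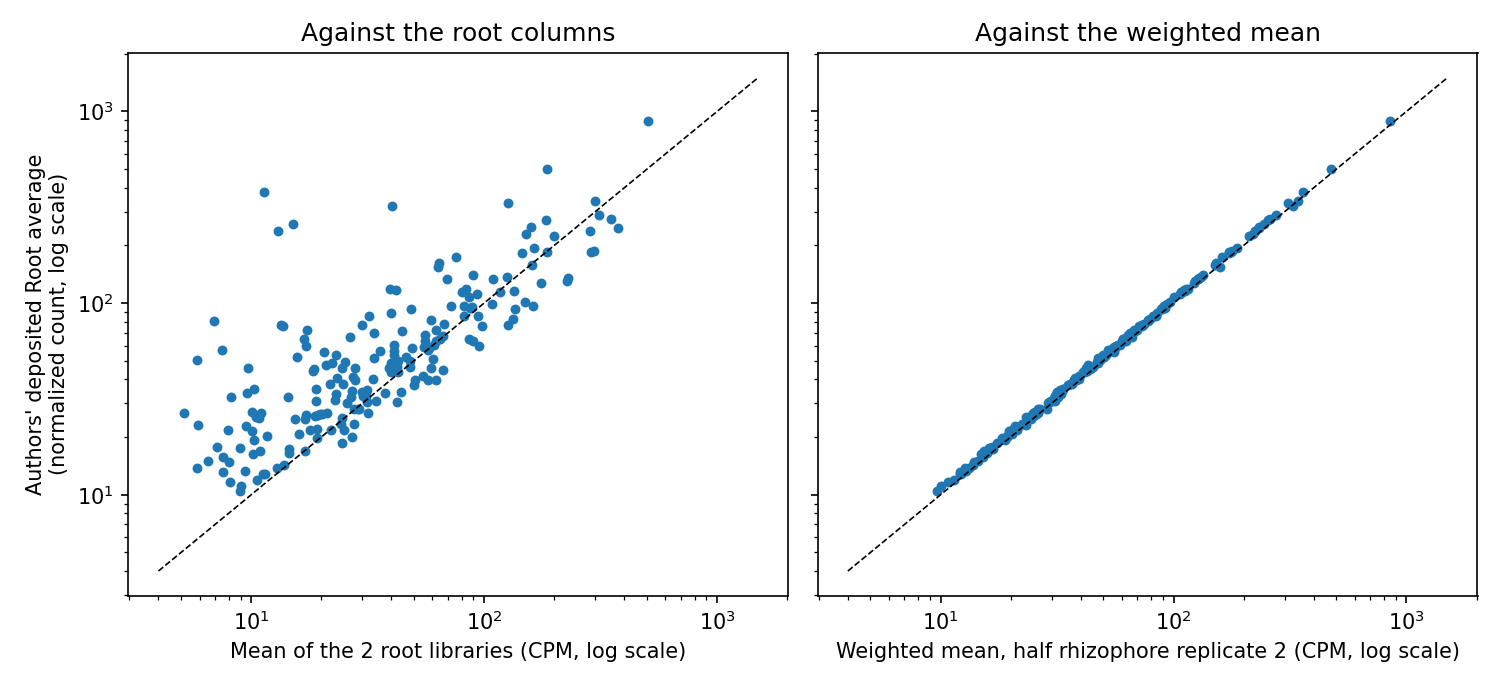
Root average in the authors' deposited table against the mean of the 2 root count columns (left) and against a weighted mean of 50% rhizophore replicate 2 and 25% of each root library (right), 1 point per member, on log axes with the line of equality. On the left the authors' values spread widely and mostly upward, by up to 33.6 times. On the right they follow the line within 10%.

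The conditions set on root were also set on the other organs, as a description, since they use the rhizophore values of the rule. Of the 467 models that met the rhizophore conditions, 238 (51.0%) met the conditions on root, and 82 (17.6%) and 67 (14.3%) met the same conditions set on shoot and on leaf. Among all 25004 models 13.4% met the conditions on root, 14.0% those on shoot and 11.8% those on leaf. With the rhizophore libraries exchanged, 475 models were high in rhizophore replicate 1 instead. Of these, 89 (18.7%) met the conditions on root, 401 (84.4%) those on shoot and 387 (81.5%) those on leaf, beside 12.8%, 17.3% and 15.4% of all models.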

How the data were processed

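The authors deposited raw read counts per gene model, 1 column per library, and a signal per organ, a normalized count averaged over replicates, both per the file headers. Per the submitters' processing notes Bowtie2, an aligner, and edgeR were used. Versions, genome build, annotation, counting tool and the treatment of reads with several matches were not given in the labels or headers. Reads were 50 bp and single-end, per the labels' protocols.

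The tests ran on the counts in edgeR 4.0.16 (R 4.3.3), with TMM scaling, filterByExpr, a term per organ and the robust quasi-likelihood test. Adjusted p-values follow Benjamini and Hochberg over all models tested. Comparisons of root, leaf and shoot used their 6 libraries, and comparisons with rhizophore all 8. Levels are CPM with TMM factors from all models, and means ± SD cover 2 libraries. Folds against a listed 0 use 5 counts per library and are lower bounds. Members' counts were compared with those of all models with a mean count of 100 or more, and none had a copy within 0.1 log2 in all 8 libraries. The procedure was run on simulated counts that gave all models and organs the same spread, with most models level across organs. That setting lacks the members' gap between the rhizophore libraries, so it does not check calls that use those libraries. It also lacks the unlike spread of the organs and the many models that differ between them. It is therefore only a limited check of the other calls. Alternatives were DESeq2 1.42.0, other scaling, no filter, a replicate term and leaving out libraries.

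The members, conditions and lists were chosen with earlier results of these data known. Models called in a comparison are named by rank, at most the first 2 per direction, because no annotation matched. For leaf against shoot all members called are named. Those called higher for root against leaf and for rhizophore against shoot are not listed. The root comparisons were not corrected for the root minimum of the rule.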

Additional observations from a re-analysis of the deposited data

How the results depend on the processing

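The rule gave 239 models with DESeq2's size factors (192 of the members among its first 200), 318 with library totals alone (166), and 271 when the 0.5 CPM was added after multiplying, a reading added after seeing the data (200). A fold of 4 gave 421 models and a fold of 16 gave 118. Calls of members for root against shoot (165) ranged from 161 to 181 without 1 library, and for root against leaf (153) from 145 to 177. DESeq2's size factors gave 189 and 186 calls, beside 13447 and 11928 of 23548 models. Without a filter there were 190 and 185, beside 13463 and 10666 of 24924 models. With all 8 libraries the calls were 7 and 1, and leaf against shoot gave 0. Leaf against shoot (5) ranged from 4 to 7 without 1 library.

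The replicate block, a term for the replicate number, gave 163, 160 and 2 members for root against shoot, root against leaf and leaf against shoot. It gave 0 for rhizophore against root (10 at an unadjusted p under 0.05) and 10 for rhizophore against shoot. Deviations of same-numbered libraries correlated between organs at -0.01 to 0.07. With 2 libraries per organ, these values cannot show whether same-numbered libraries shared plants or a batch.

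Rhizophore against root (1) ranged from 0 to 187 without 1 library. It was 187 without rhizophore replicate 2, 95 without rhizophore replicate 1 and 0 without any other library, with 2 to 5 members at an unadjusted p under 0.05. It was 10 with DESeq2's test, 0 without a filter (4 unadjusted) and 66 with rhizophore replicate 2 counted as root. Rhizophore against shoot (7) ranged from 0 to 195. It was 195 and 100 without rhizophore replicate 1 or 2, 1 without either root library, and 0 without either leaf or shoot library (11 to 48 unadjusted). It was 96 with DESeq2's test and 2 where the second rhizophore library was placed in root. The causes of these differences were not tested.

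Depth limits leaf replicate 1 most, where 5 counts are 2.15 CPM and 83 members were listed at 0.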

Other observations

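The 38 models that met the rule but ranked past the limit had medians of 2.45 CPM in rhizophore replicate 1, 27.2 CPM in rhizophore replicate 2, 29.4 CPM in root, 3.35 CPM in leaf and 5.32 CPM in shoot. Both root libraries lay above all leaf and shoot libraries in 35 of them (92.1%). The 229 models that met the rhizophore conditions but not those on root had medians of 36.7 CPM in rhizophore replicate 2, 4.18 CPM in root, 0.613 CPM in leaf and 0.824 CPM in shoot. In 50 of these (21.8%) all 4 leaf and shoot libraries were listed at 0.

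Likeness to the members was measured as Pearson's r of log2(CPM + 1) with the members' median level over the 8 libraries. Above 0.9 were 130 members (65.0%), and 462 of the other models with any spread (1.87%), of which 19 were among the 38 past the limit. The lowest value of a member was 0.19. These values share libraries with the rule and are a description.

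Across the 200 members, the rank correlation of levels was 0.75 between the root libraries and 0.62 between the rhizophore libraries. Rhizophore replicate 2 had 0.42 and 0.39 with the root libraries and 0.43 and 0.41 with the shoot libraries, and rhizophore replicate 1 had 0.42 and 0.40 with root and 0.55 and 0.58 with shoot. The members were chosen on these libraries, which narrows their range. Over all 25004 models the values for rhizophore replicate 2 were 0.88 with rhizophore replicate 1 and 0.78 and 0.75 with root. They were 0.73 and 0.77 with leaf and 0.76 and 0.77 with shoot, so its highest value was with the other rhizophore library. Rhizophore replicate 1 had values nearly as high with other organs, at 0.83 and 0.87 with leaf and 0.85 and 0.86 with shoot. With root it had 0.76 and 0.71. What sets these values was not tested.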
